A study of Mus musculus with 18 samples.

Results

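The Sall genes encode a small family of zinc finger transcription factors, the vertebrate relatives of the fly gene spalt, and they were followed through mouse heart development. The family was taken as the 4 genes Sall1, Sall2, Sall3 and Sall4, found by gene identifier in every count file, which makes 4 of the 49315 identifiers counted in the series. All 4 passed the filter on low counts that left 18885 genes for testing. RNA was sequenced from hearts dissected from wild-type C57BL/6 embryos at 5 stages, which are named by embryonic day. The earliest was E9.5, followed by E10.5 and, at wider spacing, by E12.5, then E14.5 and lastly E16.5. There were 4 libraries of each stage except E9.5 and E14.5, which had 3 each. Each library was a pool of male and female embryos, the labels name no transgene or treatment, and age was the only difference between groups that they give.

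Sall proteins carry pairs of C2H2 zinc fingers that bind AT-rich DNA, and a short conserved stretch at the start of the protein recruits NuRD, a repressor complex that joins histone deacetylation to nucleosome remodelling. SALL4 belongs to the network that keeps embryonic stem cells pluripotent, and its loss in people causes a syndrome of limb, eye and sometimes heart defects. SALL1 is best known from the kidney and from Townes-Brocks syndrome and also marks cardiac progenitor cells, SALL2 is known from eye closure and growth control, and SALL3 from palate and cranial nerve development.

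The start of the coding sequence is shown for Sall2 and Sall4, the members whose courses differed most, because it encodes the NuRD-recruiting stretch and because close copies decide whether reads of one member could be counted for another. The 36 bases were read from the GENCODE M21 transcripts of GRCm38, are given 5′ to 3′ on the coding strand, and have in capitals the positions where the pair is identical. They lie on the minus strand at chr14:52328140-52328175 for Sall2 and chr2:168766994-168767029 for Sall4, in each case within 1 coding exon.
Sall2: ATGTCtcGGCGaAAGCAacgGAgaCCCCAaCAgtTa
Sall4: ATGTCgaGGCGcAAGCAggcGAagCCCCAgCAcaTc
The pair was identical at 24 of 36 positions. In a search for exact matches only, no stretch of 50 bases of any member's exons occurred in another member. Sall1, Sall2 and Sall3 shared no such stretch with any other gene. Sall4 shared 433 of its 5668 stretches of 50 bases (7.64%), all with Gm14261, a non-coding gene on the opposite strand that overlaps 526 of the 5536 bases of Sall4's exons. The strand setting of the counting is not given in the sources used here, so reads from that overlap cannot be assigned to a strand.

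Library totals ran from 30744015 to 45646538 counts. Levels are given as CPM (counts for every 1000000 counts of a library). For these, library totals were scaled by TMM, a factor that balances the bulk of the genes between libraries. By plain library totals, 3 counts corresponded to 0.0657 to 0.0976 CPM. Heart muscle markers were present at a summed 23219 to 41973 CPM in the libraries, with 8 of 8 detected, so the tissue matched its label. The libraries fell into sets by 8 macrophage-type transcripts (Chil3, Mmp12 and others), whose sum by plain library totals was 0.582 to 2.75 CPM in 5 libraries (E9.5 replicates 2 and 3, E10.5 replicates 1 and 2, E12.5 replicate 4) and 341 to 689 CPM in the other 13. Member comparisons whose call or sign changed with these sets are given within each set. E9.5 has 1 high library and E12.5 has 1 low library, so a value within a set that uses either rests on 1 library in that arm, which is assumed to vary like the others. All 4 libraries of E16.5 were high while 2 of E9.5 were low, so that comparison is partly one between sets. Whether replicate libraries stem from different litters is not said in the labels, so the spread that p-values rest on may be technical. In bulk RNA of a whole heart, fewer cells of a type and less RNA per cell cannot be told apart.

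Every member was lower at E16.5 than at E9.5, but each had its own course. Sall4 lost most of its level between E9.5 and E12.5, Sall3 had its largest step between E12.5 and E14.5, Sall1 declined by small steps from E10.5 on, and Sall2 after E12.5. Stages were compared with edgeR's quasi-likelihood test in 1 model over all 18 libraries, with Benjamini-Hochberg adjustment over the 18885 genes, and a gene passed at an adjusted p under 0.05. Fold changes are log2 values ± SE of the later against the earlier stage.

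**Figure D1:**
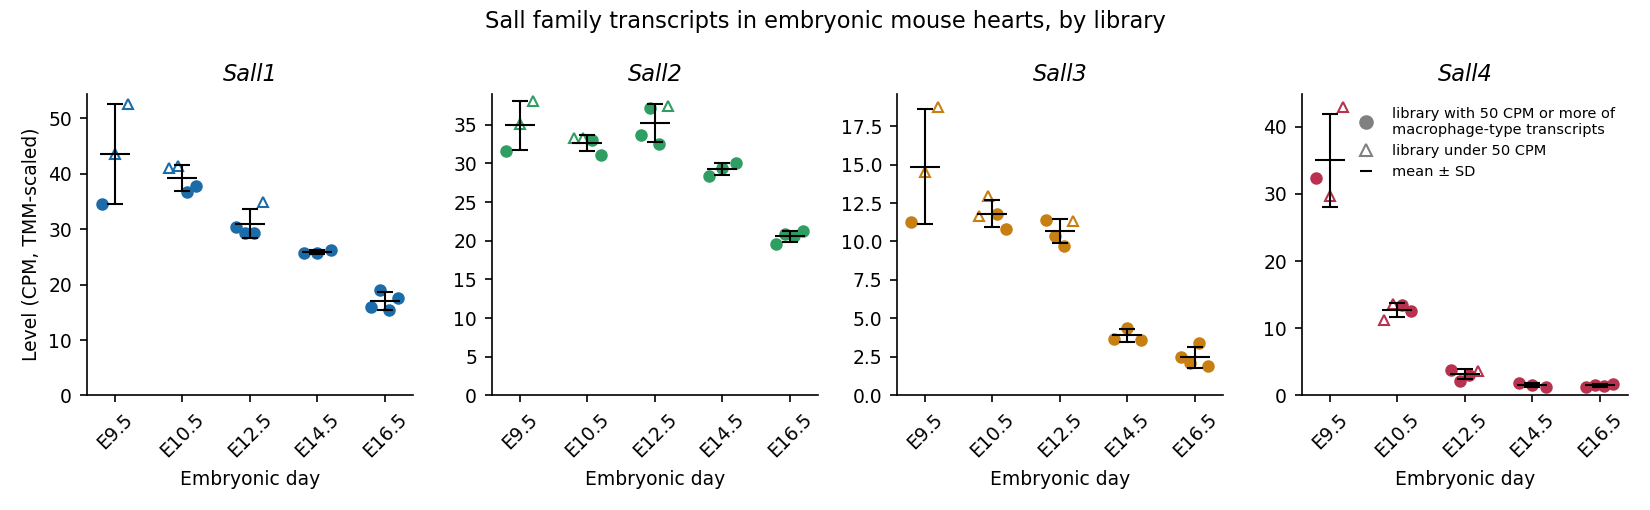
Level of each Sall member in every library, in CPM on linear axes from 0, against embryonic day; each point is a library, filled circles are libraries with 50 CPM or more of macrophage-type transcripts, open triangles those under 50 CPM, and bars give the stage mean ± SD. Sall4 goes from a mean of 35.0 CPM at E9.5 to 3.17 CPM at E12.5, while Sall2 is still at 35.2 CPM at E12.5.

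Sall4, the member with the pluripotency role, changed most. The gene lies on chromosome 2 of GRCm38, from 168748332 to 168767943 on the minus strand. Its CPM in the 3 libraries of E9.5 was 32.4, 29.7 and 42.9. In the 4 libraries of E10.5 it was 11.2, 13.6, 13.5 and 12.6, and in those of E12.5 it was 3.87, 2.16, 3.04 and 3.59. The libraries of these stages did not overlap, and each stage sat well under the one before. Sall4 fell by 1.46 ± 0.16 (log2) from E9.5 to E10.5, which is 2.75-fold (edgeR adjusted p = 3.81e-06). It was the 1 member that passed in this comparison, in which 18.2% of all genes passed, 7.62% as lower and 10.6% as higher, and 13.4% were lower with no overlap between libraries. From E10.5 to E12.5 it fell by 2.01 ± 0.16, or 4.02-fold (edgeR adjusted p = 1.83e-08), where 38% of genes passed and 18.7% were lower with no overlap. In these steps 0.837% and 0.461% of the tested genes had a lower log2 fold change than Sall4. Within the libraries low in macrophage-type transcripts the first step had a log2 fold change of -1.52, and within those high in them, with 1 library at E9.5, -1.31. The second step was -1.79 in the low libraries, with 1 library at E12.5, and -2.11 in the high ones.

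After E12.5 little Sall4 was left. The libraries of E14.5 held 1.87, 1.63 and 1.21 CPM and those of E16.5 held 1.31, 1.55, 1.39 and 1.76 CPM, from 39 to 79 and from 41 to 54 counts. The lowest, 39 counts, was well over 3 counts, and the transcript was thus still detected in every late library. Sall4 fell by 0.996 ± 0.19 (log2), 1.99-fold, from E12.5 to E14.5 (edgeR adjusted p = 0.00137), with no overlap between libraries, in a comparison in which 14.8% of genes passed and 14% were lower with no overlap. Between E14.5 and E16.5 the libraries overlapped and no difference passed (log2 fold change -0.078 ± 0.20, 95% interval -0.50 to 0.35, edgeR adjusted p = 0.833). Without replicate 1 of E14.5 this estimate was 0.062. Across the whole course Sall4 fell by 4.54 ± 0.19, or 23.3-fold (edgeR adjusted p = 1.38e-13), and 64.9% of genes passed in that comparison. This log2 fold change was -4.42 in the libraries high in macrophage-type transcripts, with 1 library at E9.5. With the library set as a term in the model it was -4.48.

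The opposite-strand neighbour Gm14261 took another course. It held 0.681 ± 0.059 CPM at E9.5 (SD, n = 3), 0.532 ± 0.23 at E12.5 (n = 4) and 1.73 ± 0.35 at E16.5 (n = 4). At E9.5 it had 19 to 23 counts per library beside 915 to 1291 for Sall4, while at E16.5 the counts were similar in number (38 to 67 beside 41 to 54). How far unassigned strand enters the low late values of Sall4 was not tested.

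Sall4 also carries a match to the let-7 seed in its 3′ UTR. The let-7 microRNAs accumulate as embryonic tissues mature, and the RNA-binding proteins LIN28A and LIN28B hold back their processing. The mature sequence is from the RefSeq table for GRCm38.p6 with its seed, bases 2 to 8, in capitals, and the Sall4 site is shown with the complement of that seed in capitals.
mmu-let-7a-5p: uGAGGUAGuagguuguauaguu
Sall4 site: ctttaatttatCTACCTCaattatcttta
The site lies at chr2:168748930-168748958 of GRCm38 on the minus strand, in the 3′ UTR of Sall4, with the match at base 1082 of its 1697. The letters CTACCTC, searched on the sense strand, occurred in 8.81% of 20920 3′ UTRs and in 11.2% of the 3069 UTRs of 0.8 to 1.25 times the length of Sall4's. They were absent from the 3′ UTRs of Sall1 (1143 bases) and Sall2 (1545 bases) and occurred once in that of Sall3 (3097 bases), where 16.48% of UTRs of like length hold them. A match is a description of the sequence: microRNA levels were not analysed here.

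Sall3 had its largest step between E12.5 and E14.5, after smaller steps that did not pass. Its gene lies on chromosome 18 of GRCm38, from 80966376 to 80986771 on the minus strand. At E9.5 its CPM was 11.3, 14.54 and 18.8, the most scattered group of the member. At E10.5 it was 11.6, 12.9, 11.8 and 10.8, and at E12.5 it was 11.4, 10.4, 9.74 and 11.3. The 4 libraries of E12.5 lay within the range of the earlier stages or just under it. Neither early step passed (E10.5 with E9.5, log2 fold change -0.33 ± 0.17, edgeR adjusted p = 0.186, and E12.5 with E10.5, -0.14 ± 0.15, edgeR adjusted p = 0.498). The first of these rested on single libraries. It was -0.48 without replicate 1 of E9.5 (edgeR adjusted p = 0.0409), -0.41 in the libraries low in macrophage-type transcripts alone (edgeR adjusted p = 0.0213) and 0.0075 in those high in them, with 1 library at E9.5 (edgeR adjusted p = 0.994).

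At E14.5 Sall3 stood at 3.70, 4.41 and 3.61 CPM. All 3 values were less than those of any earlier library. Sall3 fell by 1.45 ± 0.18 (log2), 2.73-fold, from E12.5 to E14.5 (edgeR adjusted p = 1.52e-05), and 1.3% of genes had a lower log2 fold change in that comparison. Of all genes, 14.8% passed there and 14% were lower with no overlap between libraries. With only the libraries high in macrophage-type transcripts, which include all those of E14.5, the value was -1.42. At E16.5 Sall3 had 2.497, 2.08, 3.42 and 1.92 CPM, all under the E14.5 libraries. In this last step Sall3 fell by 0.66 ± 0.18 (log2, edgeR adjusted p = 0.0152), in a comparison in which 18.9% of genes passed and 13.9% were lower with no overlap. The fall did not pass without replicate 2 of E14.5 (-0.56, edgeR adjusted p = 0.0883). Over the whole course Sall3 fell by 2.58 ± 0.18, or 5.98-fold (edgeR adjusted p = 1.6e-10). This log2 fold change was -2.18 in the high libraries, with 1 library at E9.5, and -2.41 with the library set as a term in the model.

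Sall1, the member that marks cardiac progenitors, went down by small steps. Its gene lies on chromosome 8 of GRCm38, from 89027235 to 89044162. The E9.5 libraries held 34.5, 43.6 and 52.6 CPM and those of E10.5 held 41.0, 41.4, 36.7 and 37.7 CPM. The E10.5 libraries fell inside the wide E9.5 range, and no difference passed (log2 fold change -0.15 ± 0.11, 95% interval -0.38 to 0.076, edgeR adjusted p = 0.384). The sign of this step depended on E9.5. Without its replicate 1 the value was -0.28 (edgeR adjusted p = 0.0419), without its replicate 3 it was 0.0071, and in the libraries high in macrophage-type transcripts, where that replicate 1 is the only E9.5 library, it was 0.11 (edgeR adjusted p = 0.660). In the low libraries it was -0.20 (edgeR adjusted p = 0.0744).

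From E10.5 onwards the libraries of neighbouring stages no longer overlapped for Sall1. In order of stage, 18.7, 14 and 13.9% of all genes were lower with no overlap in these steps. The CPM was 30.4, 29.3, 29.4 and 34.8 at E12.5, then 25.7, 25.7 and 26.3 at E14.5, and 15.9, 19.0, 15.5 and 17.6 at E16.5. The highest E12.5 value belonged to replicate 4, the library of that stage that was low in macrophage-type transcripts. Sall1 fell by 0.34 ± 0.10 (log2) to E12.5 (edgeR adjusted p = 0.0117). In the libraries low in macrophage-type transcripts this step was -0.24 and did not pass (edgeR adjusted p = 0.0866), with replicate 4 as the only E12.5 library. In the high libraries, 3 of them at E12.5, it was -0.33 and passed (edgeR adjusted p = 0.0119). The step to E14.5 had a log2 fold change of -0.26 ± 0.11 and did not pass over all genes (edgeR adjusted p = 0.131), although the libraries did not overlap, which held for 14% of genes in the lower direction. Sall1 fell by 0.61 ± 0.11 to E16.5 (edgeR adjusted p = 0.000675). It fell by 1.36 ± 0.11, or 2.56-fold, from E9.5 to E16.5 (edgeR adjusted p = 1.88e-09). This log2 fold change was smaller in the high libraries, with 1 library at E9.5 (-1.02), and with the library set as a term in the model (-1.17).

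Sall2 had the smallest fold change over the whole course. It is encoded on chromosome 14 of GRCm38, from 52311172 to 52328762, and has transcript starts that gene counts cannot separate. Its CPM was 31.6, 35.1 and 38.0 at E9.5, 33.3, 33.3, 33.0 and 31.1 at E10.5, and 33.6, 37.1, 32.5 and 37.4 at E12.5. The libraries of these 3 stages overlapped, and neither step passed (log2 fold changes -0.095 ± 0.073 and 0.11 ± 0.067, edgeR adjusted p = 0.421 and 0.232). The 95% intervals of these steps were -0.25 to 0.057 and -0.035 to 0.25. The sign of the first differed in the libraries high in macrophage-type transcripts, where it was 0.025 with 1 library at E9.5, from the low ones, where it was -0.11.

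Sall2 stood at 28.4, 29.4 and 30.0 CPM at E14.5 and at 19.6, 20.8, 20.7 and 21.3 CPM at E16.5. Each stage lay under every library of the stages before it. Against the stage just before, 14% of all genes at E14.5 and 13.9% at E16.5 were lower with no overlap. Sall2 fell by 0.27 ± 0.073 (log2) from E12.5 to E14.5 (edgeR adjusted p = 0.0179). That small fall did not pass without replicate 2 or 4 of E12.5 (edgeR adjusted p = 0.0535 and 0.0564), without replicate 1 or 2 of E14.5 (0.0618 and 0.0557), with libraries scaled by their totals alone (0.0954), or with only those stages in the model (0.0601). It fell by 0.51 ± 0.073 from E14.5 to E16.5 (edgeR adjusted p = 7.41e-05). It fell by 0.76 ± 0.073, or 1.69-fold, over the whole course (edgeR adjusted p = 2.07e-08). This log2 fold change was -0.61 in the high libraries, with 1 library at E9.5, and -0.68 with the library set as a term in the model.

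**Figure D2:**
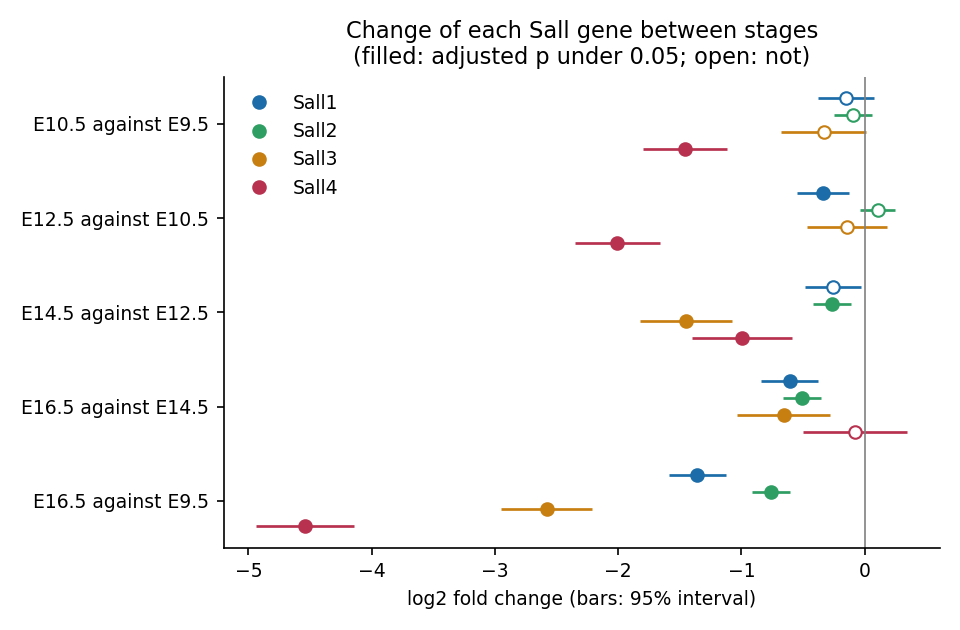
Log2 fold change of each member between neighbouring stages and between the last and the first stage; points are edgeR estimates, filled where the adjusted p is under 0.05 and open where not, and bars are 95% intervals, with 0 marked. The intervals of Sall4 lie under 0 in every comparison but E16.5 with E14.5 (-0.50 to 0.35), and the interval of Sall3 for E14.5 with E12.5 runs from -1.82 to -1.08.

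Across the 4 members, each stage against the one before, 1 passed as lower at E10.5 and 2 did at E12.5. The number was 3 for E14.5 and again 3 for E16.5, and none passed as higher. The shares of all genes that passed as lower were 7.62, 18.1, 8.56 and 8.74%, and as higher 10.6, 20, 6.29 and 10.1%. Between E9.5 and E16.5 all 4 were lower with no overlap between libraries, where 32.8% of genes passed as lower, 32.1% passed as higher and 30.5% were lower with no overlap. The median log2 fold change of the members over this span was -1.97, beside -0.0052 for all genes tested. In the test for any change over the 5 stages, which 71.7% of genes passed, edgeR's F was 264 for Sall4, 76.2 for Sall3, 47.7 for Sall1 and 40.1 for Sall2 (edgeR adjusted p = 3.39e-14, 2.92e-10, 9.4e-09 and 3.45e-08).

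Set against its own E9.5 mean, each member kept a different percentage. At E10.5, Sall4 was at 36.4%, Sall3 at 79.4%, Sall1 at 90.0% and Sall2 at 93.6%. At E12.5, Sall4 was at 9.05% while Sall2 was at 100.7%, with Sall3 at 72.0% and Sall1 at 71.1%. At E14.5, Sall3 was at 26.3%, against 59.5% for Sall1 and 83.8% for Sall2. At E16.5 the percentages were 4.29 for Sall4, 16.7 for Sall3, 39 for Sall1 and 59.0 for Sall2, the same order of means as at E10.5. At E10.5, however, the order of Sall3, Sall1 and Sall2 was not resolved. None of their changes from E9.5 passed. The libraries of Sall1 (84.3 to 95.1%) overlapped those of Sall2 (89.2 to 95.4%) and of Sall3 (72.9 to 87.1%).

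**Figure D3:**
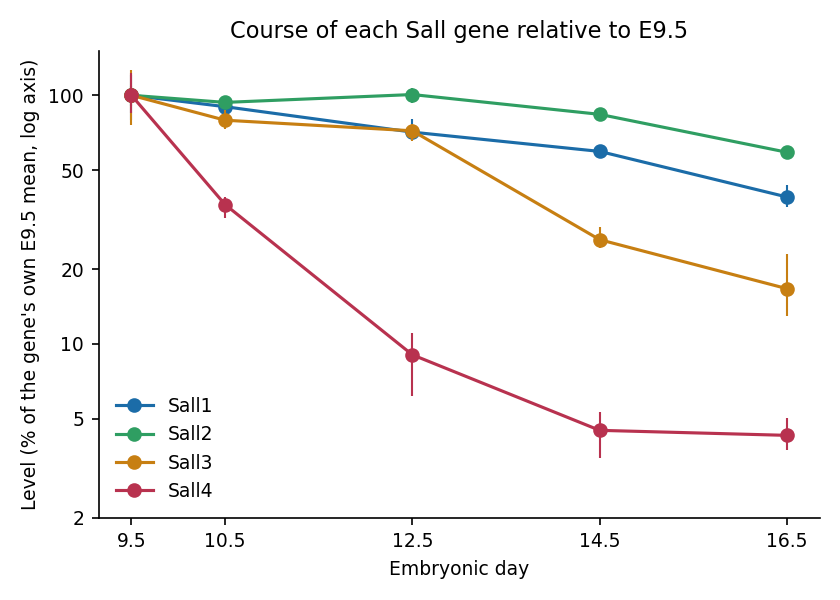
Stage mean of each member as a percentage of its own mean at E9.5, on a log axis, against embryonic day. Bars run from the lowest to the highest library of the stage. At E12.5 Sall4 is at 9.05% and Sall2 at 100.7%, and at E14.5 Sall3 is at 26.3%.

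To compare members with each other, CPM was divided by the exon length of each gene in kilobases. On this per-length scale the E9.5 heart held Sall1 at 8.27 ± 1.71, Sall2 at 6.43 ± 0.591, Sall4 at 6.32 ± 1.26 and Sall3 at 1.99 ± 0.501 (CPM per kilobase, SD, n = 3). Sall2 and Sall4 could not be ordered there, since their log2 ratio was -0.038 ± 0.21 and lay on both sides of 0. At E10.5 the order was Sall1 at 7.45 ± 0.445, Sall2 at 6.02 ± 0.191, Sall4 at 2.30 ± 0.199 and Sall3 at 1.58 ± 0.116 (SD, n = 4), with the same order in 4 of 4 libraries. By E12.5 both pairs had changed places. Sall2 at 6.47 ± 0.452 stood over Sall1 at 5.88 ± 0.496, and Sall3 at 1.43 ± 0.105 over Sall4 at 0.572 ± 0.136, again in 4 of 4 libraries. At E16.5 Sall2 led with 3.79 ± 0.128, Sall1 followed with 3.23 ± 0.306, and Sall3 at 0.332 ± 0.0901 and Sall4 at 0.271 ± 0.0356 did not separate, with Sall3 the higher of the pair in 2 of 4 libraries. The order of members within a library was not tested.

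The family's summed per-length level fell from 23.0 ± 3.84 CPM per kilobase at E9.5 through 17.3 ± 0.671, 14.4 ± 0.937 and 11.1 ± 0.148 at the stages between to 7.62 ± 0.357 at E16.5, and its make-up changed too. Sall4 made up 27.5 ± 2.79% of the sum at E9.5, 13.3 ± 1.16% at E10.5 and 3.98 ± 0.901% at E12.5. The share of Sall2 was 28.2 ± 2.13, 34.7 ± 0.818 and 45.1 ± 2.08% at the same stages and 49.8 ± 1.32% at E16.5. Sall1 had 35.8 ± 2.30% at E9.5 and between 40.9 and 44.3% on average later. Sall3 had 8.56 ± 0.811, 9.09 ± 0.355 and 9.97 ± 0.511% up to E12.5, then 4.70 ± 0.508% at E14.5 and 4.38 ± 1.32% at E16.5. For Sall4 and Sall2 the shares of E9.5, E10.5 and E12.5 did not overlap between stages, and likewise for Sall3 between E12.5 and E14.5.

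By exact two-sided permutation tests over libraries, with 25 shares and ratios tested together, the smallest p the design allows was 0.0571 for 3 libraries against 4 and 0.0286 for 4 against 4. The lowest adjusted p was 0.0840, so no share could pass the threshold. The log2 ratio of Sall4 to Sall2 within a library, which does not depend on scaling, had a mean of -1.39 ± 0.14 at E10.5, then -3.53 ± 0.42 at E12.5. It was -4.27 ± 0.36 at E14.5, against -3.81 ± 0.15 at E16.5. The E16.5 ratios all lay over those of E14.5 (difference 0.45, exact permutation p = 0.0571, the smallest possible), and between these stages Sall2 fell while no change of Sall4 passed.

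**Figure D4:**
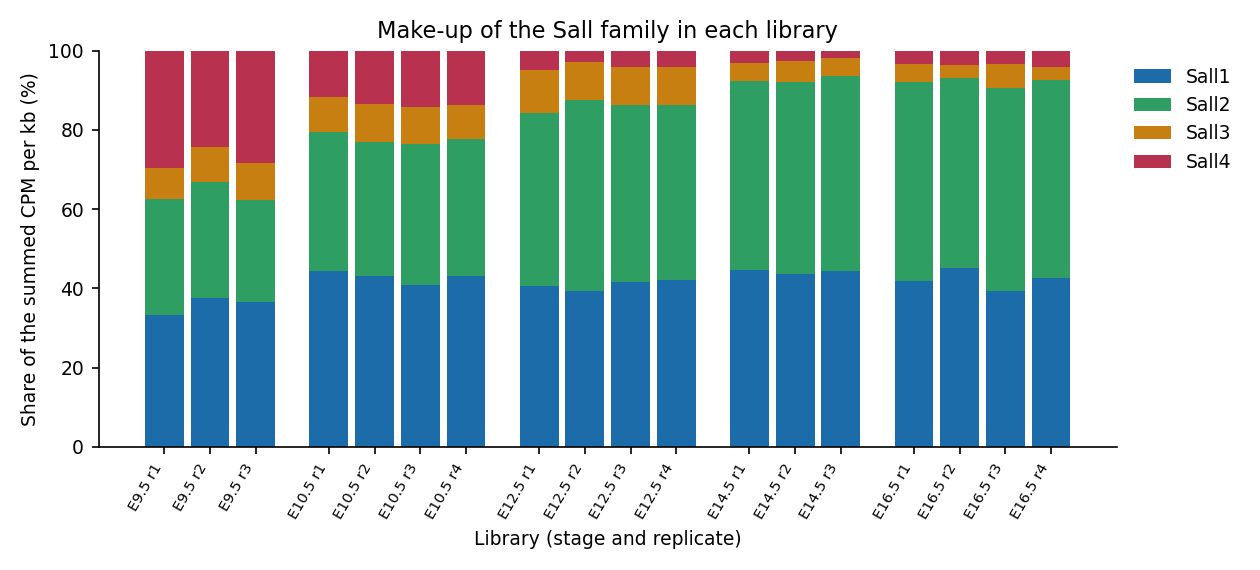
Share of each member in the family's summed CPM per kilobase of exon, in percent, as 1 stacked bar from 0 to 100 for each library, grouped by stage. The mean Sall4 segment goes from 27.5% at E9.5 to 3.98% at E12.5, and that of Sall2 from 28.2 to 45.1%.

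Most subunits of NuRD, the complex that Sall proteins recruit, were lower at the end of the course. Of 15 subunits tested, 10 passed as lower and 2 as higher at E16.5 against E9.5, where 32.8% of all genes passed as lower and 32.1% as higher, with a median log2 fold change of -0.29 beside -0.0052 over all genes. The 3 with the smallest p were Hdac1, a deacetylase of the complex, which fell by 0.86 (220 ± 5.82 to 121 ± 2.02 CPM, edgeR adjusted p = 1.06e-09), Rbbp7, a histone chaperone (log2 fold change -0.67, edgeR adjusted p = 1.26e-08), and Gatad2a, a scaffold subunit (-0.62, edgeR adjusted p = 2.74e-07). Between neighbouring stages, from first to last, 1, 5, 3 and 2 of the 15 passed as lower, beside 7.62, 18.1, 8.56 and 8.74% of all genes. Only 1 passed as higher in such a step, at E12.5, where 20% of all genes did.

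Genes of the pluripotency and oncofetal network around Sall4 did not move as a block. Of 14 listed, 6 were under the filter: Pou5f1, Zfp42, Dppa4, Utf1 and Prdm14 with 1 to 14 counts summed over the 18 libraries, and Tcl1 at a count of 0 in every library. Of the 8 tested, 4 passed as lower and 3 as higher between E9.5 and E16.5. Lin28b, which blocks let-7 maturation, fell by 3.46 on the log2 scale (39.7 ± 2.34 to 3.59 ± 0.867 CPM, edgeR adjusted p = 4.2e-14). Trim71, a ubiquitin ligase of early embryos, fell by 7.91 (55.2 ± 9.01 to 0.228 ± 0.140 CPM, edgeR adjusted p = 3.7e-13). Klf4, a zinc finger factor that also acts in vessels and epithelia, rose by 1.81 (10.9 ± 0.657 to 38.2 ± 3.46 CPM, edgeR adjusted p = 6.65e-12). The 4 that passed as lower over the whole course were also the 4 lower at E10.5 and at E12.5, steps in which Sall4 fell. They were Lin28b, Trim71 and, named after their values were seen, Lin28a and Tdgf1. In these steps 7.62 and 18.1% of all genes passed as lower.

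Of 14 cardiac regulators with which Sall factors share tissues or partners, 9 passed as lower and 1 as higher from E9.5 to E16.5 (median log2 fold change -0.42, beside 32.8% lower and 32.1% higher among all genes). The second heart field, a progenitor pool that adds muscle to the outflow tract and right ventricle, supplied 2 of the 3 with the smallest p. Fgf10, a growth factor of that field, fell by 4.14 (10.9 ± 3.14 to 0.615 ± 0.213 CPM, edgeR adjusted p = 1.82e-11), and Isl1, its marker, fell by 2.82 (10.9 ± 1.77 to 1.55 ± 0.577 CPM, edgeR adjusted p = 4.12e-09). Hand1, a basic helix-loop-helix factor of the left ventricle, fell by 3.28 (81.2 ± 13.7 to 8.34 ± 0.942 CPM, edgeR adjusted p = 1.37e-13). In the step from E9.5 to E10.5, 9 of these 14 passed as lower and none as higher, beside 7.62 and 10.6% of all genes. Tbx5, the limb and heart factor most often named beside Sall4 and chosen after its values were seen, went only from 138 ± 24.0 to 100.4 ± 10.1 CPM over the whole course (log2 fold change -0.45, edgeR adjusted p = 8.63e-04).

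Markers of other cell types moved over the same stages. Summed over 7 epicardial markers, the libraries held 81.3 to 152.9 CPM at E9.5 and 320 to 496 CPM later. The sum of 6 fibroblast markers ran from 204 to 279 CPM at E9.5, from 1826 to 2388 CPM at E12.5 and from 3702 to 4606 CPM at E16.5. For 6 markers of resident macrophages and microglia, where Sall1 is a known regulator, the sum was 14.1 to 22.9 CPM at E9.5 and 80.7 to 93.9 CPM at E16.5. The 4 germ cell markers summed to 1.98 to 4.96 CPM in all libraries, and the 5 markers of skeletal muscle progenitors to at most 1.54 CPM. The 7 foregut endoderm markers summed to 7.82 to 16.7 CPM at E9.5 and 22.5 to 24.9 CPM at E16.5, of which Sox17, a gene also of endothelium, made up a mean of 7.44 and 21.1 CPM. Epcam (1.12 to 0.269 CPM, edgeR adjusted p = 0.0278) and Cldn6 (1.31 to 0.0484 CPM, edgeR adjusted p = 0.0344) passed as lower over the same span. Sox17, Shh, Epcam and Cldn6 were chosen after their values were seen. The 11 neuronal markers summed to 40.4 to 137 CPM at E9.5 and 143 to 195 CPM at E16.5. Between these they held 44.6 to 112 CPM at E10.5, 42.7 to 117 at E12.5 and 73.3 to 120 at E14.5, ranges that overlap that of E9.5. Whether the spread within a stage follows the library sets was not tested. The 8 neural crest and Schwann cell markers summed to 72.3 to 102 CPM at E9.5 and 133 to 145 CPM at E16.5. The neuronal markers did not all move alike: between E9.5 and E16.5, 6 passed as higher, 1 as lower and 4 did not pass. Among all genes 32.1% passed as higher and 32.8% as lower. The part of these shifts in the levels of the Sall genes was not tested.

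The genes most alike each member over the 18 libraries were found by Pearson's r of log2 CPM among 10901 protein-coding genes, as a description, since libraries of a stage share their age and genes are not independent. For Sall4 they were Arhgap1 (r = 0.992), Ncbp1 (0.991), which binds the mRNA cap, Rtca (0.990), an RNA-processing cyclase, Ppat (0.989), which opens purine synthesis, and Pes1 (0.988), a ribosome biogenesis factor. Likeness here is of the course, not of its size: Arhgap1 went from 263 ± 22.8 CPM at E9.5 to 139 ± 8.04 at E12.5 and 112 ± 6.56 at E16.5. For Sall3 they were Phc1 (0.981), a Polycomb subunit, Arid3a (0.973), a DNA-binding factor, Ninl (0.972), Klhl6 (0.972) and Timeless (0.972), a replication fork protein. Arid3a was lower at E14.5 than at E12.5, as Sall3 was, and went from 55.8 ± 4.29 to 19.3 ± 3.63 CPM.

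For Sall1 the closest genes were Capn6 (0.976), a calpain-family protein without protease activity, Wnk3 (0.976), P3h2 (0.973), a collagen prolyl hydroxylase, Fam206a (0.973) and Gprc5c (0.972). Capn6 went from 547 ± 89.1 CPM at E9.5 to 172 ± 23.0 at E16.5. For Sall2 they were Mex3a (0.978), an RNA-binding protein, Dgkk (0.966), Scube1 (0.965), Oprl1 (0.964) and Cnn1 (0.964), a smooth muscle calponin. Mex3a was at 136 ± 14.4, 139 ± 6.502, 140.4 ± 9.95, 112 ± 7.75 and 70.3 ± 5.01 CPM in order of stage, with its lower means at E14.5 and E16.5, as for Sall2. The courses differed in how common they were: r exceeded 0.9 for 1293 genes with Sall4 (11.9%), 943 with Sall1 (8.65%), 591 with Sall3 (5.42%) and 79 with Sall2 (0.725%). Among the members themselves r was 0.919 for Sall1 with Sall3, 0.903 for Sall1 with Sall2, 0.900 for Sall2 with Sall3, 0.847 for Sall1 with Sall4, 0.810 for Sall3 with Sall4 and 0.609 for Sall2 with Sall4.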

How the data were processed

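The authors deposited 1 table of raw read counts by Ensembl gene per library, 18 in all. Tools named in the submitters' processing notes are Trimmomatic 0.36, STAR 2.5.2b, Subread 1.5.2 and featureCounts, with the builds GRCm38 and mm10. Not given in the sources used here are their order, the strand setting and the annotation release. Symbols were given for 48970 of the 49315 identifiers, and coordinates and exon lengths came from GENCODE M21 (GRCm38), which held 49056. The rest held 0.0238 to 0.0388% of the counts. Library totals and the level of 3 counts, which cover counting error only, are given above. Replicates were not duplicates of each other: in 24 pairs the chi-square per degree of freedom was 6.06 to 79.8.

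Counts were filtered with filterByExpr by stage, scaled with TMM and fitted with edgeR 4.0.16 (R 4.3.3, robust quasi-likelihood, stage as the only term, 18885 genes, adjusted p under 0.05), after the scripts were tested on simulated data. Exact permutation tests used SciPy 1.17.1. The alternatives were RLE size factors, library totals, removal of mitochondrial and globin genes, other filters, DESeq2 1.42.0, limma-voom (limma 3.58.1), the stages compared alone, a replicate block, library sets (split at 50 CPM of macrophage-type transcripts) and each library left out. Genes named were the members, the 3 genes of each partner list with the smallest p for E16.5 with E9.5, list genes at a count of 0 throughout, and per member the 5 tested protein-coding genes with the highest r and a mean of at least 5 CPM (log2 CPM, prior count 2), leaving out predicted, RIKEN-named, mitochondrial and ribosomal protein genes. Other list genes are marked as named after their values were seen. The members, lists and library sets were chosen with earlier results of these data known. No protein sequence was used, and coding starts are given for Sall2 and Sall4 alone.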

Additional observations from a re-analysis of the deposited data

Results flagged for a closer look

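In each of 27 groups of 4 libraries (member CPM, shares and the Sall4 to Sall2 ratio at E10.5, E12.5 and E16.5), the gap of the highest or lowest library to its nearest neighbour was set against the range of the group. In 3 groups it exceeded Dixon's 95% critical value for 4 libraries. Chance flags about 1 in 20 groups. Sall2 at E10.5 stood at 31.1 CPM in replicate 4, under a group median of 33.1 CPM (gap 0.860 of the range). The share of Sall3 in the family at E12.5 was 10.7% in replicate 1, over a median of 9.74% (0.874 of the range). The log2 ratio of Sall4 to Sall2 at E10.5 was -1.60 in replicate 1, under a median of -1.33 (0.923 of the range), and the other 3 libraries of that stage lay close together.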

How the results depend on the processing

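Of the 20 comparisons of a member between stages, 13 kept their direction and their side of the threshold under every alternative run, among them every fall of Sall4. For the others the cause was not tested. The fall of Sall2 from E12.5 to E14.5 did not pass with library totals only (-0.19) or only those stages in the model (-0.25), and ran from -0.30 to -0.23 with single libraries left out. With only the libraries low in macrophage-type transcripts, Sall3 passed for E10.5 with E9.5 (-0.41), Sall1 did not for E12.5 with E10.5 (-0.24, 1 library at E12.5), and 6460 genes passed for E10.5 with E9.5. With only the high libraries, 1 of them at E9.5, 1215 passed there, and Sall1 (0.11), Sall2 (0.025) and Sall3 (0.0075) changed sign. With single libraries left out, E10.5 with E9.5 gave -0.28 to 0.0071 for Sall1, -0.48 to -0.13 for Sall3 and 2260 to 3839 genes (3446 with all). E16.5 with E14.5 gave -0.22 to 0.062 for Sall4, -0.85 to -0.55 for Sall3 and 2058 to 3849 genes (3562), and E14.5 with E12.5 gave 1771 to 2585 genes (2803). Library totals only moved the median of all genes to -0.15 for E16.5 with E14.5, and the share of higher among passing genes from 53.6 to 24.4%, and from 42.3 to 62.5% for E14.5 with E12.5.

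Without gene length, the change in the share of Sall3 between E12.5 and E14.5 was -6.94 points (-5.27 with it), and between E9.5 and E16.5 it was -5.47 (-4.17 with it). In the high libraries, with 1 library at E9.5, the share changed by 9.07 for Sall1 and -26.1 for Sall4 for E16.5 with E9.5, and by 1.33 for Sall3 for E10.5 with E9.5. The change in the Sall3 share for E16.5 with E14.5 ran from -0.90 to 0.056 with single libraries left out.

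Replicate numbers did not pair the libraries: same-numbered libraries of different stages correlated at a median of -0.0205 over 33 pairs, and 3 of 18 libraries correlated best with their own number. With a replicate block no call on a member changed, Sall4 gave -1.49 between E9.5 and E10.5, and 3286, 7060, 2415, 3105 and 11927 genes passed (3446, 7181, 2803, 3562 and 12255 without it). Depth limits the late Sall4 values, which rest on 39 to 79 counts. The libraries low in macrophage-type transcripts cover 3 of the 5 stages, so the test over all stages was not run in them alone.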
